A study of Mus musculus with 9 samples.

Results

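The genes described here are 47 markers of lung epithelium and of the cell types it gives rise to, followed in pneumospheres, spheres of cells that grow in suspension from dissociated embryonic mouse lung. The markers were chosen by name, with earlier results of these data known. They are 13 general epithelial genes, 5 of basal cells, 5 of secretory cells and 5 of ciliated cells. Alveolar type 2 cells have 9 and alveolar type 1 cells 10. All 47 had a row in the deposited table of 27179 genes. Lungs of C57/B6 embryos at E11.5 were dissociated with trypsin and left for a short time on ordinary plastic, a step by which the submitters sought to enrich epithelium. The cells that did not attach were grown on low-attachment plates with basic FGF, EGF and heparin in reduced oxygen. Poly(A) RNA was sequenced from 3 libraries each on day 3, day 7 and day 10 of culture, with the cells split on days 3 and 7. There was no treatment, all groups share the strain, tissue and medium, and uncultured lung was not analysed here. No label ties the 3 libraries of a day to different cultures or litters, so the p-values measure only the spread between these samples, which may be technical. The comparisons ask which epithelial transcripts were present and how they moved during culture.

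Lung epithelium arises from foregut endoderm that expresses the homeodomain factor Nkx2-1, and its cells are joined by E-cadherin (Cdh1), Epcam and claudins. The epithelium at E11.5 consists of progenitors, in which these general genes are normally on. Most, but not all, genes of ciliated, secretory and alveolar cells come on later in gestation. Many genes used as alveolar type 1 or type 2 markers in the mature lung are also expressed by mesenchyme, mesothelium, endothelium or neurons. For that reason the 47 were divided by general knowledge into 33 taken as largely restricted to epithelium and 14 shared with other cells. The shared ones are Krt8, Krt18, Krt19, Krt17, Tppp3, Il33, Lpcat1, Hopx, Pdpn, Akap5, Clic5, Rtkn2, Emp2 and Limch1.

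Promoter sequences of 4 markers are shown because the results below turn on these genes or their groups and because 3 of them hold short motifs of factors known to govern epithelial genes. The windows are the 250 bases before the start of transcription, from RefSeq on GRCm38.p6, written on the gene's strand. Promoters were found for 31 of the 47 markers, in 38 windows. Sftpb (surfactant protein B, a target of Nkx2-1; chr6:72304360-72304609, plus strand) has 2 matches to CTCAAG, the core of the Nkx2-1 site, in capitals. Epcam (chr17:87635729-87635978, plus strand) has 2 matches and Cldn4 (claudin 4; chr5:134946935-134947184, minus strand) 1 match to CACCTG, an E-box that the Snail and Zeb repressors bind, in capitals. Emp2 (chr16:10313969-10314218, minus strand), the marker with the highest CPM on days 7 and 10, has 2 matches to the GC box GGGCGG, in capitals. Both strands were searched, and none of the capitalised matches shares bases with a match to another of these motifs or to TATAAA.
Sftpb: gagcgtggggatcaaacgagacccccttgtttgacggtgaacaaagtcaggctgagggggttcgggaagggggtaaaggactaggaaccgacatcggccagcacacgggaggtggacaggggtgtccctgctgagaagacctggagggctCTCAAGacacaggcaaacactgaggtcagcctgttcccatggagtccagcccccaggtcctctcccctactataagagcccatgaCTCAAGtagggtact
Epcam: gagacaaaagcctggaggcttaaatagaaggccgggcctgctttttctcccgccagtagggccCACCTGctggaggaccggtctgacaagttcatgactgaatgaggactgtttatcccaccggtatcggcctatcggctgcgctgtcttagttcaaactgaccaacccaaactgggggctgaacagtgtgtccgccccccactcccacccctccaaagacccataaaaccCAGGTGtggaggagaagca
Cldn4: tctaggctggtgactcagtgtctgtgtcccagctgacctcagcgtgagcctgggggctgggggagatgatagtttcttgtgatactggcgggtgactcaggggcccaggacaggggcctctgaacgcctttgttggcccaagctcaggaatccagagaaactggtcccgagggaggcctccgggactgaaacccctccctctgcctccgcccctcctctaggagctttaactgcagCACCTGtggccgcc
Emp2: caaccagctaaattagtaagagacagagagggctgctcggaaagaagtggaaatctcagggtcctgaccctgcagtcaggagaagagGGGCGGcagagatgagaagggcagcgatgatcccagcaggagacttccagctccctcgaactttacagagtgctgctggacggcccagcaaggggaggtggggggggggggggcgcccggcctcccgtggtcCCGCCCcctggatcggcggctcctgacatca
Among all 32851 promoter windows of this length, 13.3% hold CTCAAG, 17.2% CACCTG, 32.7% GGGCGG and 12.4% TATAAA. Of the 38 windows of markers, CTCAAG was found in 5 (Bpifa1, Cldn6, Hopx, Sftpa1 and Sftpb) and CACCTG in 11 (Akap5, Bpifa1, Cldn4, Cldn6, Cldn7, Elf3, Epcam, Krt18, Krt5, Krt8 and Nkx2-1). GGGCGG was found in 13 windows and TATAAA in 5. A match describes the letters only and is not a shown binding site.

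Library totals ran from 20716878 to 30466712 counts, so that 0 counts in a library allow up to 3 counts, or 0.0987 to 0.149 CPM (counts scaled to a common library size, with edgeR's TMM factors); this limit covers counting error only. Transcripts of mesenchyme were far more abundant than the restricted markers. The 15 genes of a mesenchyme list summed to between 14133 and 48909 CPM per library and the 33 restricted markers to between 14.9 and 19.7 CPM. Col1a1, a chain of type I collagen, stood at 3856 ± 259 CPM (SD, n = 3) on day 3 and Vim, an intermediate filament of mesenchymal cells, at 661 ± 43.4 CPM. Col1a1 rose by 1.60 by day 10 on the log2 scale (SE 0.13, edgeR adjusted p = 6.55e-06). The change of 0.30 for Vim (SE 0.12, adjusted p = 0.0478) was not called in 12 of 18 alternatives, where the adjusted p ran from 0.0262 to 0.192 over all 18, libraries of every day being among those whose removal ended the call. The defining genes of lung epithelium, Nkx2-1, Epcam and Cdh1, were at or near 0, so the markers are described by name and not as the content of an epithelium. In these bulk libraries, fewer cells of a type and less RNA per cell cannot be told apart. Day 3 replicate 2 differed from the other day 3 libraries in liver transcripts: Afp (alpha-fetoprotein) stood at 4.02 CPM and Alb (albumin) at 4.26 CPM there, against at most 0.121 CPM of Afp and 0 counts of Alb in the other 2.

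**Figure D1:**
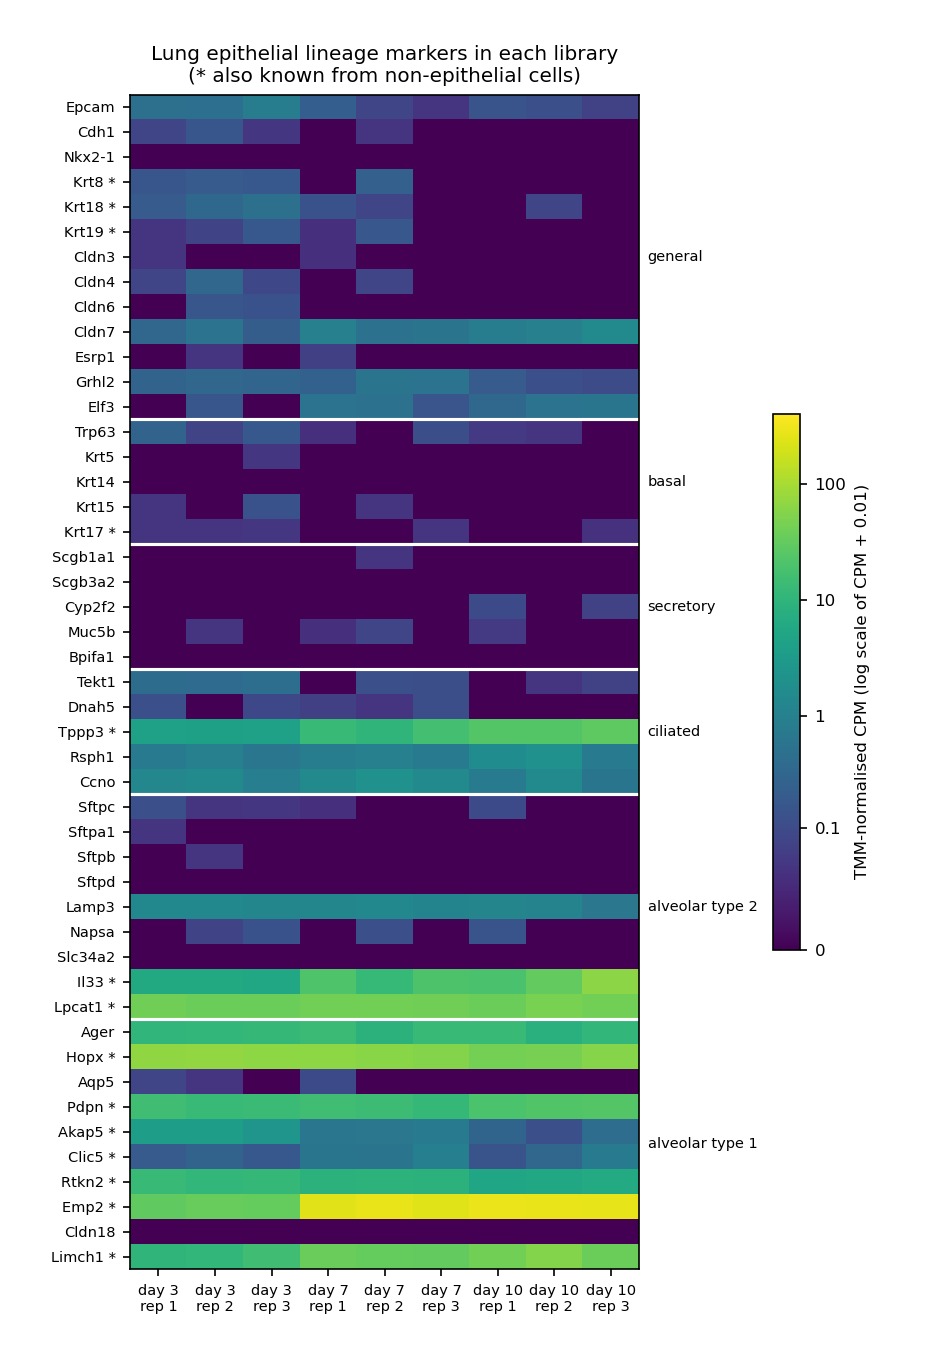
Level of each of the 47 markers (rows, by cell type) in each of the 9 libraries (columns), as TMM-normalised CPM on a log colour scale; an asterisk marks the 14 genes shared with other cells. Emp2, Hopx and Lpcat1 are the brightest rows over all libraries, while 7 genes, among them Nkx2-1 and Cldn18, have no count in any library.

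Most markers were at or near 0. Of the 47, 7 had no count in any library: Nkx2-1, Krt14 (a basal keratin), Scgb3a2 and Bpifa1 (secreted proteins of airway cells), Sftpd (surfactant protein D), Slc34a2 (a phosphate transporter of type 2 cells) and Cldn18 (a tight junction protein of alveolar cells). Another 23 had counts but too few for the test, never more than 14 in a library. These 30 together had 50 to 60 counts per library on day 3, 24 to 40 on day 7 and 7 to 13 on day 10. Only 17 passed the filter on low counts, 7 of the 33 restricted markers and 10 of the 14 shared ones. A gene can pass that filter through the day on which it is high, so the counts of calls below describe these 17 and not all 47. This applies to Epcam, high on day 3, to Elf3 and Cldn7, higher on days 7 and 10, and to Clic5, high on day 7. Their tests are therefore not independent of the filter.

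Among the general epithelial genes, Epcam fell during culture. It had 12, 12 and 19 counts in the day 3 libraries, 7, 2 and 1 on day 7 and 3, 3 and 2 on day 10. Every day 3 library lay above every later one, while days 7 and 10 overlapped. Epcam (Entrez 17075, chromosome 17, 87635979 to 87651127) thus went from 0.599 ± 0.207 CPM on day 3 to 0.117 ± 0.1 CPM on day 7 and 0.113 ± 0.0395 CPM on day 10 (SD, n = 3). The log2 change was -2.23 (SE 0.54) to day 7 and -2.39 (SE 0.57) to day 10, with adjusted p = 0.00842 and 0.00486 in edgeR's quasi-likelihood test. Without day 7 replicate 1 the change to day 7 was -3.20. Epcam was rare throughout: per kilobase of exon its mean level over the 9 libraries was above that of 3.48% of the genes tested.

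Cdh1, the claudins other than Cldn7, and the keratins of this group were too scarce to test. Cdh1 had 2, 4 and 1 counts on day 3, 0, 1 and 0 on day 7 and none on day 10. Cldn4 had 2, 8 and 2 counts on day 3, 2 on day 7, all in replicate 2, and none on day 10. The largest day 3 counts of Cdh1, Cldn4 and Cldn6 were all in replicate 2, the library with Afp and Alb; the part of liver transcripts in these counts was not tested. Cldn6, an embryonic claudin, had 0, 4 and 3 counts on day 3 and none later, and Cldn3 had 2 counts in all. The simple keratins Krt8, Krt18 and Krt19, which mesothelium also makes, summed to between 10 and 19 counts per library on day 3, between 0 and 12 on day 7 and between 0 and 2 on day 10. The 12 were in day 7 replicate 2, where Krt8 had 6 and Krt19 had 4, and day 7 replicate 3 had none. Day 7 replicate 2 also had the most liver transcripts of that day, with 6 counts of Afp and 4 of Alb. Replicates 1 and 3 of day 7 had 1 and 2 counts of Afp and 0 and 1 of Alb. Over the same days the 8 genes of a mesothelium list summed to between 69.9 and 91.5 CPM on day 3, 37.8 to 40.9 CPM on day 7 and 18.4 to 29.0 CPM on day 10. All 4 tested members of that list fell by day 10, where 27.2% of all genes tested were lower, among them Wt1 (64.3 ± 11 to 20.0 ± 5.74 CPM), while Msln and Upk3b had at most 2 counts in a library and Muc16 none. Upk1b, which was not tested, had 1 count on day 3, 8 on day 7 and 12 on day 10. The parts of mesothelial cells and of liver transcripts in the keratin counts were not tested.

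Cldn7 and Elf3 moved in the other direction from Epcam. Cldn7, a claudin of simple epithelia (chromosome 11, 69964779 to 69967886), had 0.323, 0.552 and 0.220 CPM in the day 3 libraries, 0.987, 0.535 and 0.585 on day 7 and 0.892, 1.00 and 1.59 on day 10. All day 10 libraries lay above all day 3 libraries, and day 7 overlapped both. The log2 change from day 3 to day 10 was 1.66 (SE 0.42, edgeR adjusted p = 0.00677), and the change of 0.94 to day 7 did not pass (adjusted p = 0.109), though it did without both day 3 replicate 2 and day 10 replicate 3 (1.36, adjusted p = 0.0444, in a range of 0.0444 to 0.368). The call for day 10 held without day 3 replicate 2, the library with Afp and Alb. Elf3, an Ets factor of epithelial differentiation (chromosome 1, 135253574 to 135258472), had 0, 4 and 0 counts on day 3, 17, 13 and 4 on day 7 and 7, 14 and 17 on day 10. It rose by 3.11 on the log2 scale by day 10 (SE 0.87, edgeR adjusted p = 0.0112). All 4 counts of day 3 came from replicate 2, and without that library Elf3 had no count on day 3 and no fold is given. Its rise to day 7 (2.83, SE 0.88, edgeR adjusted p = 0.0265) lost its call when day 3 replicate 1 (0.0871) or 3 (0.0814), or day 7 replicate 1 (0.0896) or 2 (0.0664), was left out. Over all alternatives in which Elf3 was tested the adjusted p ran from 0.00964 to 0.0896. An antisense gene shares 7.31% of the exon bases of Elf3, and no source used here states whether counting used strand. Both genes stayed rare: per kilobase, Cldn7 stood at 0.595 and Elf3 at 0.227 CPM on day 10, against 0.0515 for Epcam. Grhl2, a regulator of epithelial junction genes, was not tested; it had 7, 8 and 7 counts on day 3, 8, 14 and 14 on day 7 and 4, 3 and 3 on day 10, and the epithelial splicing factor Esrp1 had 3 counts in all.

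Airway markers gave little signal apart from those of the ciliated list. Trp63, the basal cell factor, had 7, 2 and 4 counts on day 3, 1, 0 and 3 on day 7 and 1, 1 and 0 on day 10. The keratins Krt5, Krt15 and Krt17 had 1, 5 and 5 counts over all 9 libraries. Of the secretory genes, Scgb1a1 (club cell secretory protein) had 1 count, Muc5b (a gel-forming mucin) 5 and Cyp2f2 (a cytochrome P450 of club cells) 4, the last all on day 10. None of these 10 basal and secretory genes could be tested.

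In the ciliated list, Tppp3, which encodes a tubulin-binding protein also known from tendon sheath cells, rose at each step. Tppp3 (chromosome 8, 105467492 to 105471422) had 4.29, 4.10 and 4.36 CPM on day 3, 13, 10.1 and 16.7 on day 7 and 23.7, 23.6 and 29.2 on day 10. The 3 days did not overlap. The log2 change was 1.64 (SE 0.18, edgeR adjusted p = 9.24e-05) to day 7 and a further 0.95 (SE 0.17, adjusted p = 0.0121) to day 10, 6.01-fold in all. The other 4 ciliated genes were not called in any comparison or were too rare to test. Tekt1, a tektin of the axoneme, had 10 counts in each day 3 library, 0, 3 and 3 on day 7 and 0, 1 and 2 on day 10. Dnah5, a heavy chain of axonemal dynein, had 5 counts on day 3, 6 on day 7 and none on day 10. Rsph1, a radial spoke protein, stood at 0.804 ± 0.184, 0.885 ± 0.104 and 1.52 ± 0.696 CPM on the 3 days (SD, n = 3), with day 10 replicate 3 at 0.741, and its log2 change of 0.90 from day 3 to day 10 did not pass (SE 0.38, edgeR adjusted p = 0.0663). Ccno, which acts in the making of many centrioles, stood at 1.25 ± 0.295, 1.73 ± 0.315 and 0.955 ± 0.495 CPM and passed in no comparison.

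Genes of surfactant had few or no counts. Sftpc, the classic type 2 cell gene, had 3, 1 and 1 counts on day 3, 1 on day 7 and 2 on day 10. Sftpa1 and Sftpb had 1 count each, both on day 3, and Napsa, a protease that processes surfactant proteins, had 11 over the 9 libraries. Together Sftpa1, Sftpb, Sftpc, Sftpd and Napsa had 0 to 5 counts per library. Lamp3, a membrane protein of lamellar bodies that dendritic cells also make, stood at 1.37 ± 0.0804, 1.28 ± 0.114 and 1.01 ± 0.300 CPM (SD, n = 3), with a log2 change of -0.46 from day 3 to day 10 that did not pass (SE 0.27, edgeR adjusted p = 0.167).

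The 2 shared genes of the type 2 list were abundant. Il33, an alarmin cytokine also made by fibroblasts and endothelium (chromosome 19, 29925113 to 29960718), had 6.31, 6.19 and 5.64 CPM on day 3, 21.5, 11.9 and 21.1 on day 7 and 18.9, 31.9 and 64.2 on day 10. Day 3 lay below both later days, and days 7 and 10 overlapped, with day 10 replicate 3 far above the rest. Il33 rose by 1.59 (SE 0.41, edgeR adjusted p = 0.0129) to day 7 and by 2.67 (SE 0.42, adjusted p = 0.000518) to day 10, while the step from day 7 to day 10 gave 1.08 (SE 0.39, adjusted p = 0.118). Without day 10 replicate 3 the change from day 3 to day 10 was 2.08. Without it the step from day 7 to day 10 was 0.48 (adjusted p = 0.329). That step was called without day 10 replicate 1 (1.40, adjusted p = 0.0299) and by DESeq2 (adjusted p = 0.0246), and its adjusted p reached 0.389 over the alternatives. Lpcat1, an acyltransferase that remodels phosphatidylcholine (chromosome 13, 73467231 to 73516420), stayed between 36.5 and 46.5 CPM in the 9 libraries. Its log2 change from day 3 to day 10 was 0.12 (SE 0.09, edgeR adjusted p = 0.302).

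In the alveolar type 1 list, 3 of 8 tested markers rose and 3 fell from day 3 to day 10. Of all genes tested, 29.5% were higher and 27.2% lower, so these counts are no result about the list. Emp2, a tetraspan membrane protein found in many cell types (Entrez 13731, chromosome 16, 10281749 to 10313968), had 29.9, 33.8 and 33.1 CPM on day 3, 246, 278 and 240 on day 7 and 292, 277 and 271 on day 10. All 6 later libraries lay far above all 3 of day 3, and days 7 and 10 overlapped. The log2 change was 2.98 (SE 0.09, edgeR adjusted p = 4.44e-08) to day 7 and 3.12 (SE 0.09, adjusted p = 1.80e-08) to day 10, or 8.68-fold, and the second step gave 0.14 (SE 0.08, adjusted p = 0.320). Limch1, which binds actin and myosin (chromosome 5, 66745889 to 67057159), had 10.4, 11 and 15.2 CPM on day 3, 35.8, 31.9 and 31.4 on day 7 and 41.5, 56.6 and 36.7 on day 10. It rose by 1.44 (SE 0.19, adjusted p = 0.000260) to day 7 and by 1.88 (SE 0.19, adjusted p = 2.66e-05) to day 10, without overlap between the days. The second step of Limch1 gave 0.44 (SE 0.18, edgeR adjusted p = 0.151) and was not called. Pdpn, podoplanin, a mucin-type glycoprotein that mesothelium, lymphatic endothelium and fibroblasts carry too (chromosome 4, 143267409 to 143299564), rose late. Its mean was 13.9 ± 1.45 CPM at first, 13.7 ± 1.75 on day 7 and 21.7 ± 1.72 on day 10 (SD, n = 3), with every day 10 library above all others and a log2 change of 0.66 in the second step (SE 0.12, edgeR adjusted p = 0.0140). Without day 7 replicate 2 that step was not called (0.0529, range over alternatives 0.000114 to 0.0529).

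Other type 1 markers fell. Akap5, an anchoring protein for protein kinase A that neurons also express (chromosome 12, 76324617 to 76334517), had 3.68, 3.75 and 2.47 CPM on day 3, 0.625, 0.658 and 0.780 on day 7 and 0.297, 0.120 and 0.423 on day 10. The 3 days did not overlap. The log2 change was -2.26 (SE 0.32, edgeR adjusted p = 0.000416) to day 7 and -3.52 (SE 0.37, adjusted p = 3.07e-05) to day 10. The second step gave -1.26 (SE 0.41, adjusted p = 0.0839) and was called without day 10 replicate 3 (-1.75, adjusted p = 0.0408, in a range of 0.0408 to 0.186). Neural transcripts fell in the same step: the 9 genes of a neural and neuroendocrine list summed to between 131 and 169 CPM on day 3, 16.5 to 20.5 on day 7 and 8.64 to 11.2 on day 10, and all 9 fell by day 7, where 19.0% of all genes tested were lower. Their part in the fall of Akap5 was not tested. Rtkn2 (chromosome 10, 67979566 to 68058429) went from 11.7 ± 0.889 to 9.08 ± 0.273 and 5.71 ± 0.560 CPM (SD, n = 3). It fell by 0.67 on the log2 scale from day 7 to day 10 (SE 0.12, edgeR adjusted p = 0.0135) and by 1.04 from day 3 (SE 0.12, adjusted p = 7.09e-05). The step from day 7 to day 10 was not called without day 7 replicate 2 (0.0582, range over alternatives 0.000270 to 0.0596). The smaller first step (-0.37, adjusted p = 0.0312) lost its call without day 3 replicate 1 (0.124) or 3 (0.0752), without day 7 replicate 1 (0.0868), 2 (0.0597) or 3 (0.0786), and with no filter on low counts (0.0619), in a range of 0.0155 to 0.124. An antisense gene shares 3.89% of the exon bases of Rtkn2. Hopx, an atypical homeodomain protein (chromosome 5, 77086986 to 77115123), had 68.5, 70.4 and 67.1 CPM on day 3, 65.7, 60.8 and 56.5 on day 7 and 43.5, 45.3 and 59.1 on day 10. All day 10 libraries lay below all day 3 libraries, a fall of 0.48 on the log2 scale (SE 0.11, edgeR adjusted p = 0.00493). The step from day 7 to day 10 was called only without day 10 replicate 3 (-0.46, adjusted p = 0.00907), or without it and day 3 replicate 2 (adjusted p = 0.0199). An antisense gene shares 27.2% of the exon bases of Hopx, so its counts may hold reads of both.

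Ager and Clic5 complete the type 1 list, with Aqp5 (a water channel) at 6 counts in all. Ager, the receptor RAGE (Entrez 11596, chromosome 17, 34597460 to 34600937), was the most abundant restricted marker, with no call in any comparison. Its levels were 11.1 ± 0.602, 11.8 ± 2.35 and 10.8 ± 2.39 CPM on the 3 days (SD, n = 3), and the days overlapped. The log2 change from day 3 to day 10 was -0.05 (SE 0.19, edgeR adjusted p = 0.848). Of the other restricted genes in this list, Cldn18 had no count and Aqp5 only 6. Whether the Ager transcripts came from epithelium was not tested. Clic5, a chloride intracellular channel protein linked to the actin cortex, had 5, 7 and 4 counts on day 3, 18, 14 and 25 on day 7 and 3, 8 and 23 on day 10. Its rise to day 7 (1.68, SE 0.56, edgeR adjusted p = 0.0349) lost its call when any day 3 library was left out (0.10, 0.0676 and 0.103 without replicates 1, 2 and 3) and without day 7 replicate 1 (0.0577) or 3 (0.113), in a range over alternatives of 0.00627 to 0.113.

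**Figure D2:**
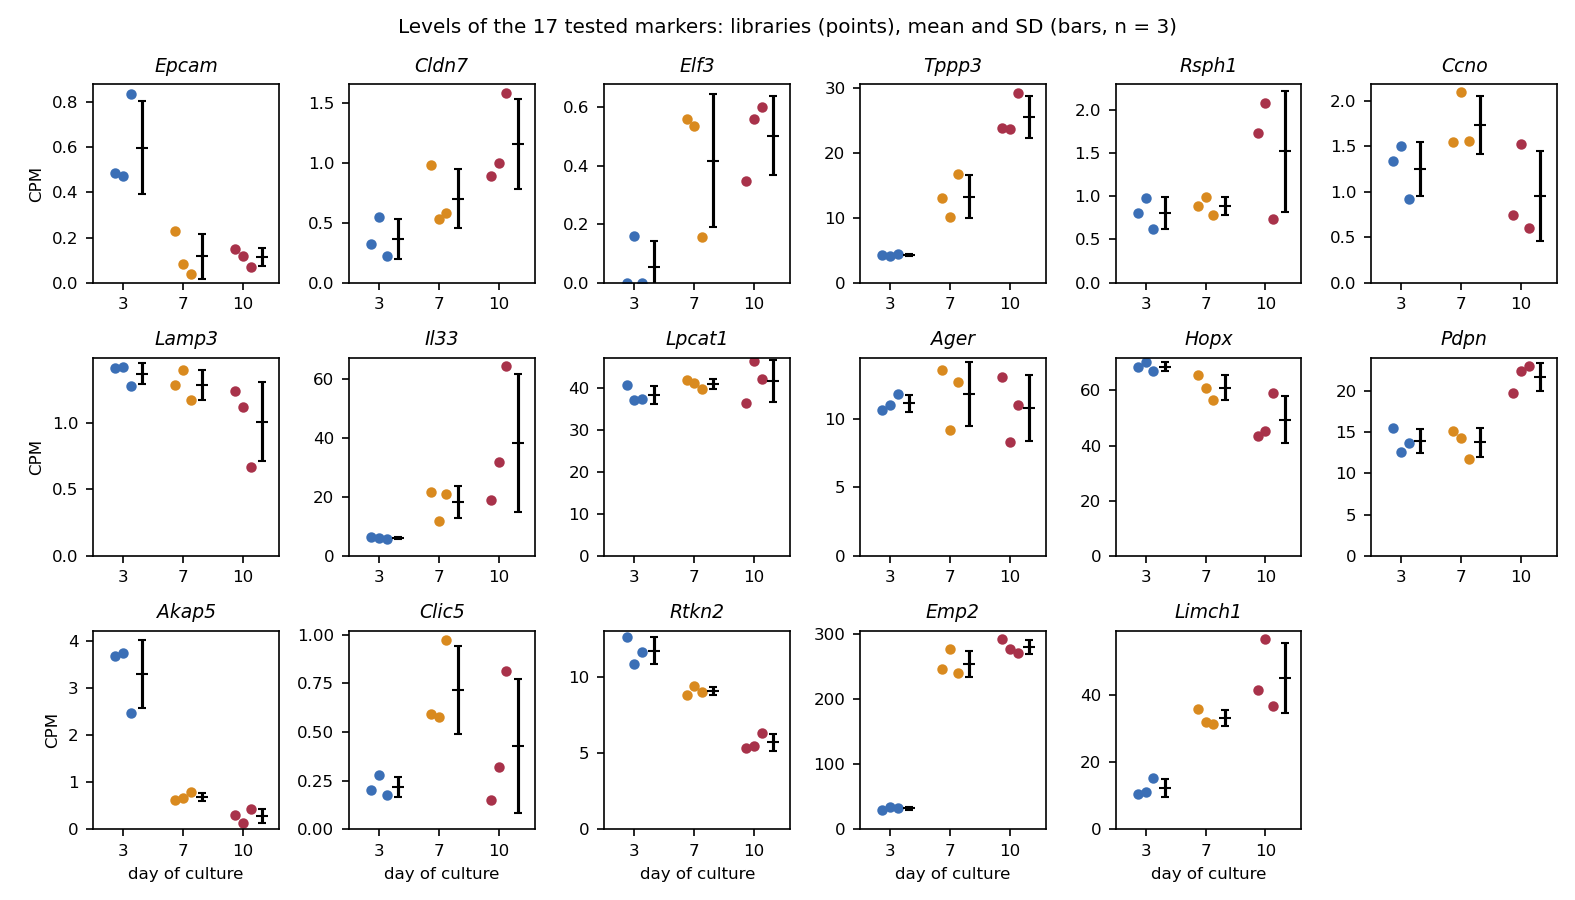
Level of the 17 tested markers by day of culture, in TMM-normalised CPM on linear axes from 0: points are libraries in the order of replicates 1 to 3, and bars the mean and SD of 3 libraries. Emp2 stands between 240 and 292 CPM in the 6 later libraries against 29.9 to 33.8 on day 3, while Epcam lies below 1 CPM throughout.

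In CPM, Emp2 led the markers on day 10. Per kilobase of exon Hopx and Emp2 were close, at 32.5 and 32.4 CPM per kilobase. They were followed by Tppp3 (13.8), Il33 (13.3), Pdpn (11.9), Lpcat1 (9.0), Ager (5.05) and Limch1 (4.38). The SD of Il33 spans its neighbours in this order, Tppp3 and Pdpn, and the order of Hopx and Emp2 lies within theirs. On day 3 Hopx led with 45.3 CPM per kilobase, before Lpcat1 (8.29), Pdpn (7.65) and Ager (5.21), and Emp2 stood at 3.73. Averaged over all libraries, the level of Hopx per kilobase lay above that of 92.3% of the genes tested and that of Emp2 above 83.5%, against 47.8% for Ager and 4.17% for Elf3.

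Of the 17 tested markers, 7 rose and 4 fell between day 3 and day 10, where 29.5% of the 14940 genes tested were higher and 27.2% lower (adjusted p under 0.05). The rises were in Elf3, Cldn7, Emp2, Il33, Pdpn, Limch1 and Tppp3, and the falls in Rtkn2, Akap5, Epcam and Hopx. Called markers were 11 of 17, against 56.7% of all genes, a share near that of genes at large and so no result about the markers. Their median log2 change was 0.64 and that of all genes 0.00. Among the 7 restricted markers tested, Elf3 and Cldn7 rose and Epcam fell; among the 10 shared ones, 5 rose and 3 fell. Between day 3 and day 7, 6 rose and 3 fell, where 22.8% of genes were higher and 19.0% lower (41.8% in either direction). The rises were in Elf3, Emp2, Clic5, Il33, Limch1 and Tppp3, and the falls in Rtkn2, Akap5 and Epcam. Between day 7 and day 10, Pdpn and Tppp3 rose and Rtkn2 fell, where 4.41% of genes were higher and 4.1% lower (8.51% in either direction). These last 3 calls were lost when the fit held the 6 libraries of days 7 and 10 alone (edgeR, 0 called), and DESeq2 called 3 higher and 1 lower. In the edgeR fit to all 9 libraries, 8 of 17 markers had an unadjusted p under 0.05 for this step. So did 3793 of all 14940 genes tested. Without day 7 replicate 2 that step gave 1 higher and 0 lower marker, and without day 10 replicate 3 it gave 3 higher and 3 lower. The comparisons share libraries, so their counts are not independent. With no filter on low counts, 7 markers were higher and 9 lower on day 10 than on day 3, where 21.3% and 19.3% of 20878 genes were: Tekt1, Krt8, Krt18, Cldn4 and Cdh1 joined the 4 above. Over the 40 markers then tested the median log2 change was -1.13, opposite in sign to that of the 17, against 0.00 for all genes.

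**Figure D3:**
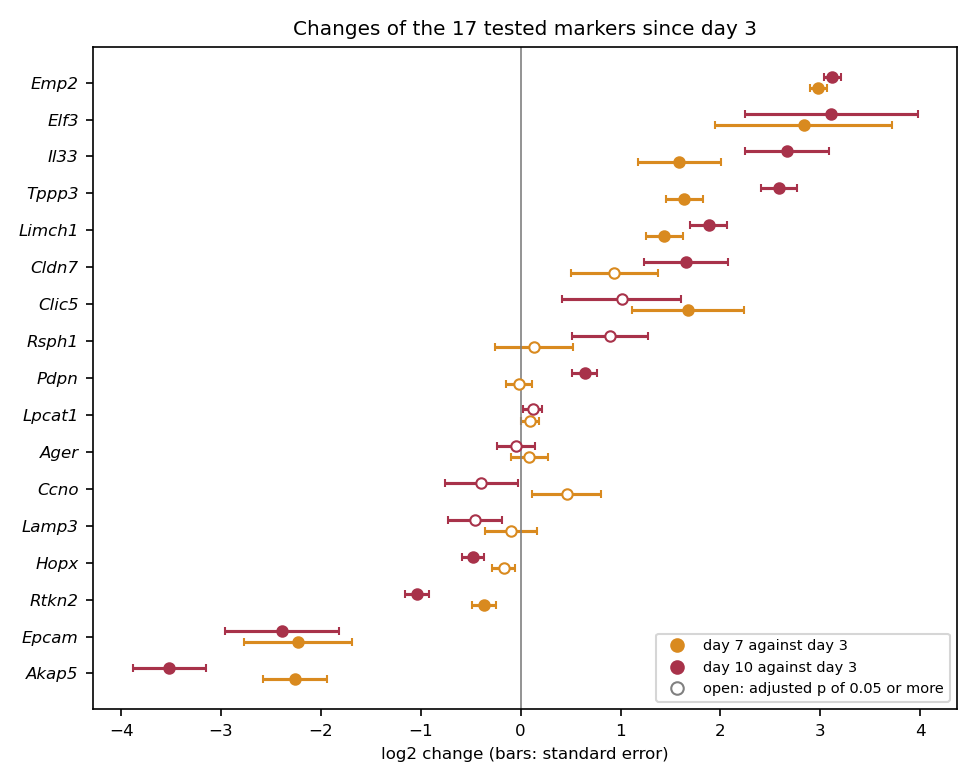
Log2 change of the 17 tested markers from day 3 to day 7 and from day 3 to day 10, with standard errors as bars; filled points passed an adjusted p of 0.05 and open points did not. Emp2 and Elf3 lie near 3 with very different errors (0.09 and 0.87 for day 10), and Akap5 and Epcam are the lowest.

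The summed level of the shared markers was higher on each later day, while the days overlapped for the restricted ones. The 14 shared markers summed to between 191 and 193 CPM on day 3, 428 to 459 on day 7 and 482 to 533 on day 10, the 33 restricted ones to between 16.6 and 17.8, 16.0 and 19.7, and 14.9 and 18.8 CPM. Most of the restricted sum was Ager, at 11.1 ± 0.602 CPM on day 3 and 10.8 ± 2.39 on day 10. The sum therefore describes Ager more than the other restricted markers. The 30 markers below the filter, of both groups, summed to 2.02 to 2.51 CPM on day 3 and 0.280 to 0.644 on day 10. Emp2 alone made up 280 ± 10.9 CPM of the shared sum on day 10. The sum of the mesenchyme list was also higher on each later day, at 14133 to 15992 CPM on day 3, 27915 to 34187 on day 7 and 42708 to 48909 on day 10; 10 of its 15 genes rose and 4 fell by day 10, where 29.5% of all genes were higher and 27.2% lower. Most of that sum was collagen: Col3a1 reached 19782 ± 1564, Col1a1 11697 ± 1488 and Col1a2 6699 ± 651 CPM (SD, n = 3). The transcription factors Tbx4, Tbx5, Tcf21 and Twist2 fell, and Foxf1 gave a log2 change of 0.03 (SE 0.14, edgeR adjusted p = 0.847). The part of mesenchymal cells in the shared markers was not tested. Erythroid transcripts, which do not belong to epithelium, summed to 977 to 1164 CPM on day 3 and to 0.423 to 0.920 CPM on day 10, and all 4 tested members of that list fell.

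**Figure D4:**
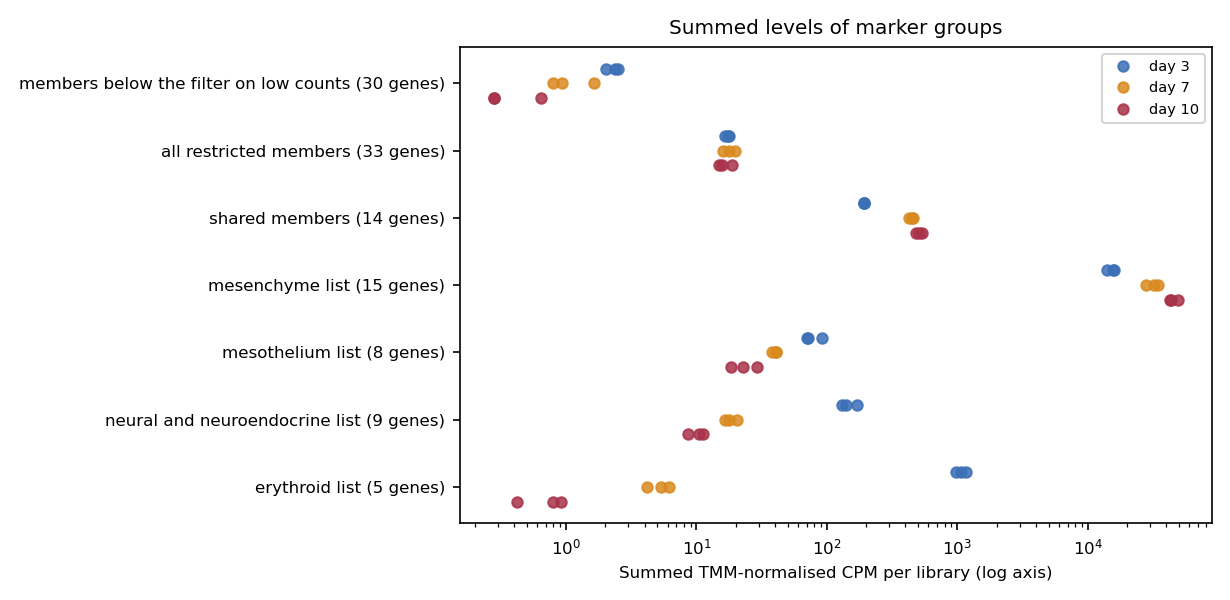
Summed TMM-normalised CPM of groups of genes in each library (points, coloured by day) on a log axis. The mesenchyme list lies above 14133 CPM in every library, the 33 restricted markers lie between 14.9 and 19.7 CPM, and the 30 markers below the filter on low counts between 0.280 and 2.51 CPM.

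Other epithelial genes, from a list of transcription factors, junction, splicing, protease and receptor genes, were also partly missing. Of 43 genes in that list, 20 were tested, and 3 rose (F11r, Sox9 and Ovol1) and 10 fell from day 3 to day 10, against 29.5% higher and 27.2% lower of all genes, with a median log2 change of -0.82. Without both day 3 replicate 2 and day 10 replicate 3, only 1 rose. Foxa1 and Shh, both expressed by early lung epithelium, had 0 counts in all 9 libraries. F11r, which encodes the junctional adhesion molecule JAM-A of epithelium, endothelium and other cells, rose from 2.75 ± 1.05 to 46.5 ± 8.24 CPM (SD, n = 3; log2 change 4.09, SE 0.24, edgeR adjusted p = 1.41e-06). Jup, plakoglobin, which also serves cadherin junctions outside epithelium, was abundant and fell from 310 ± 36.4 to 150 ± 32.4 CPM (-1.05, SE 0.17, edgeR adjusted p = 0.000635). Erbb3, a neuregulin receptor of epithelium and glia, fell from 2.32 ± 0.438 to 0.0566 ± 0.0510 CPM (-5.29, SE 0.67, edgeR adjusted p = 0.000110). Sox2, a factor of proximal airway and of neural cells, had 40, 36 and 60 counts on day 3 and 1 count each on day 7 and day 10 (edgeR adjusted p = 2.98e-05). The glial factor Sox10 fell with these genes, from 3.28 ± 0.402 to 0.0518 ± 0.0617 CPM, and the part of glia in their fall was not tested.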

How the data were processed

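RNA-seq libraries of 9 pneumosphere samples, 3 per day, were analysed. Raw counts per Entrez gene, without normalisation, are what the authors deposited, and the submitters' processing notes name featureCounts and mm10. Aligner, annotation and strand setting: not given in the sources used here. Every column matched 1 sample by its label. Names came from RefSeq (GRCm38.p6) for 25275 of 27179 IDs, exon lengths and overlaps from GENCODE M21. Counts were tested with edgeR 4.0.16 in R 4.3.3: filterByExpr (14940 genes kept), TMM factors, and the robust quasi-likelihood F test over all 9 libraries with Benjamini-Hochberg adjustment over all tested genes; an adjusted p under 0.05 was called. Levels are TMM-normalised CPM. Standard errors were taken as |log2 change|/√F. The fit was tested on simulated data. Alternatives covered scaling, filters, DESeq2 1.42.0, the replicate block and left-out libraries. Named are all markers called in any comparison, 8 by rule whatever their call (Nkx2-1, Epcam, Cdh1, Sftpc, Scgb1a1, Trp63, Krt5 and Ager), and Vim and Col1a1; F11r, Jup, Erbb3, Sox2 and Sox10, and untested or uncalled markers with values, were picked after their values were seen. The markers and lists were chosen with earlier results of these data known. Endothelium (summing to between 126 and 339 CPM per library), leukocyte (2.96 to 9.03 CPM) and other endoderm (4.21 to 14.1 CPM) lists were also measured. The strand of promoter windows was checked against GENCODE transcripts.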

Additional observations from a re-analysis of the deposited data

How the results depend on the processing

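From day 3 to day 10, 7 markers rose and 4 fell under each scaling and with DESeq2, and 5 rose and 3 fell with a filter of 1 CPM. With no filter on low counts 9 fell. Without single libraries the counts for day 10 against day 3 ran from 7 to 8 higher and 4 to 6 lower, for day 7 against day 3 from 4 to 6 higher and 2 to 4 lower, and for day 10 against day 7 from 1 to 3 higher and 0 to 3 lower. For day 10 against day 7, the lowest counts came without day 7 replicate 2 (1 higher, 0 lower) and the most lower calls without day 10 replicate 3 (3), a fit to those days alone gave 0 higher and 0 lower, and leaving out both day 3 replicate 2 and day 10 replicate 3 gave 2 lower. Without those 2 libraries, 1 other epithelial gene was higher on day 10 than on day 3, and without single libraries 2 to 4 were higher and 8 to 10 lower; alternatives for that list, and for Vim, Col1a1, F11r, Erbb3, Jup and Sox2, were added after the data were seen. The causes were not tested. Apart from the fit with no filter, no share of all genes called is given for these alternatives or for the replicate block. Their counts therefore describe the markers alone.

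Rsph1, Ccno, Lamp3 and Lpcat1, called in no comparison of the main fit, were not followed for direction under the alternatives. Among the other tested markers, direction turned only in changes that were not called. For day 7 against day 3 these were Pdpn (0.064 without day 3 replicate 1, 0.084 without day 7 replicate 3, in a range of -0.097 to 0.084) and Ager (-0.026 without day 7 replicate 1, range -0.026 to 0.241). For day 10 against day 7 they were Elf3 (-0.102 without day 7 replicate 3, range -0.102 to 0.568), Epcam (0.815 without day 7 replicate 1, 0.109 without day 10 replicate 3 and 0.11 without both libraries above, range -0.546 to 0.815) and Ager (0.023 without day 10 replicate 2, range -0.289 to 0.023). For day 10 against day 3 it was Ager (0.114 without day 10 replicate 2, range -0.197 to 0.114).

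With the replicate block, 8 markers rose, with Rsph1 gained (adjusted p = 0.0346), and 4 fell from day 3 to day 10, 6 and 3 to day 7, and 2 and 1 from day 7 to day 10. Deviations of same-numbered libraries correlated across genes at -0.069 to 0.433, and those of differently numbered ones at -0.3555 to 0.2214. Not every library correlated best with its own number, so the main fit did not pair the samples by number. The highest of these correlations, 0.433, joined replicate 2 of days 7 and 10. Column labels of the deposited counts run in sequence from day 3 to day 10 within each replicate number. Afp and Alb were highest in replicate 2 on days 3 and 7, with at most 1 count in a library on day 10. Some genes of the endothelium list also kept their order of replicates on every day. Pecam1 had 40, 66 and 120 counts on day 3, 9, 70 and 161 on day 7 and 4, 29 and 109 on day 10. Cdh5 and Tie1 had the same order and Kdr kept another, while Tek, Erg and Emcn changed theirs. Whether same-numbered libraries share a culture was not tested. At this depth a marker at 0 counts may have a level of up to 3 counts in a library.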
